A study of Mus musculus with 12 samples.

Results

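Hepatocytes store triglyceride in lipid droplets, and 10 genes of the enzymes that break it down, and of the proteins that control those enzymes, are described here. They were taken by gene symbol from the 52636 genes of the deposited table: the lipases Pnpla2, Pnpla3, Lipe, Mgll, Lipa and Lipc, the lipase regulators Abhd5, G0s2 and Hilpda, and the droplet enzyme Hsd17b13. All 10 were measured in every library and passed the filter on low values.

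RNA was sequenced from liver cells of 6 mice, 3 wild-type (WT) and 3 labelled as knockouts (KO) of Ptprk, a receptor-type tyrosine phosphatase. Hepatocytes from the steatotic livers were separated by lipid content on a Percoll gradient, and each mouse gave 1 low-fat and 1 high-fat library. The 4 groups are thus the low-fat and the high-fat cells of WT and of KO mice, with 3 libraries each, and low and high refer to the fat in the cells of a library. All livers were steatotic, so no group is a lean control. The age, sex, strain and diet of the mice and the way the knockout was made, including whether every copy of the gene is affected, are not given in the sources used here.

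As background, triglyceride is cut in steps. PNPLA2 (adipose triglyceride lipase) removes the first fatty acid, LIPE (hormone-sensitive lipase) acts mainly on the diglyceride, and MGLL (monoglyceride lipase) frees the last fatty acid, while LIPA cuts lipids inside lysosomes. PNPLA2 is activated by ABHD5 and inhibited by G0S2 and HILPDA, and PNPLA3 and HSD17B13 sit on liver lipid droplets, where variants of both are known for their link to fatty liver disease in people.

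Hsd17b13 and Pnpla3 transcripts were lower in the high-fat than in the low-fat library of each of the 6 mice. In the fitted means they fell by 33.0% and 39.6%. They were the only members called between the fractions, where 15.4% of all genes tested were called and 7.02% were called lower. No member was called between the genotypes, where 0.00604% of all genes tested were called. G0s2 and Pnpla3 varied far more from mouse to mouse than most genes did.

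The start regions of the 2 genes that fell are printed to show the letters around their starts. Each runs from 250 bases before to 50 bases after a RefSeq transcription start and is given 5′ to 3′ on the gene's strand (build GRCm38.p6). Hsd17b13 lies at chr5:103977339-103977638 on the minus strand, and the capitals mark TGACCT, a hexamer of the sites that nuclear receptors bind. Pnpla3 lies at chr15:84167566-84167865 on the plus strand, and its capitals mark GGGCGG, the box bound by SP1, and CCAAT, the box bound by NF-Y, on either strand.
Hsd17b13: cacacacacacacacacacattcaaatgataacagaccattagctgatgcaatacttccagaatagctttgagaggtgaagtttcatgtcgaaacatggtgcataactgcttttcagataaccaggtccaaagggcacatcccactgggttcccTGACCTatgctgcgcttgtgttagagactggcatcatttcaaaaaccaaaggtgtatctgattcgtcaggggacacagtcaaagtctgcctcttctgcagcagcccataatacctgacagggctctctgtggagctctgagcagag
Pnpla3: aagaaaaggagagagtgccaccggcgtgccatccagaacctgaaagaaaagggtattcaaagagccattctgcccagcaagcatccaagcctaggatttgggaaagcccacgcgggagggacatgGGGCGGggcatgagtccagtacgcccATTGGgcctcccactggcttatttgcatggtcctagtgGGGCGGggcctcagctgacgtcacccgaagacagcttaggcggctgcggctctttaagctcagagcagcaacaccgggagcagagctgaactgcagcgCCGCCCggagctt

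The hexamer of Hsd17b13 begins 96 bases before the start, and TGACCT was found on either strand in 16.3% of the 32851 RefSeq promoters of this length. In Pnpla3 the CCAAT box begins 99 bases before the start on the other strand, and 2 GGGCGG boxes begin 125 and 61 bases before it. A further GGGCGG box, on the other strand, lies after the start, at bases 288 to 293 of the window. CCAAT was present in 37.4% and GGGCGG in 35.7% of all promoters, and the Hsd17b13 window held neither. TCACNCCAC, a sterol element bound by SREBP factors, was present in 0 of the 14 promoters of the 10 members and in 1.24% of all promoters. These are matches of letters within a short window.

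Levels are given as reads per 20 M, the unit of the deposited table, in which the reads of each library are scaled to 20 M. Estimated depth was 15.1 to 25 M reads, so that 3 reads correspond to 2.40 to 3.98 reads per 20 M, and every member lay above this in every library. As a check of the labels, low-fat libraries read Ptprk at 2788 ± 83.7 (WT) and 1271 ± 135 (KO), and high-fat libraries at 2407 ± 209 and 1200 ± 19.3 (SD, n = 3 each), so KO libraries read less Ptprk but keep much of it. The 10 hepatocyte markers summed to 646772 to 810277 reads per 20 M in low-fat and 654443 to 804035 in high-fat libraries.

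High-fat libraries also held more transcripts of macrophages, stellate cells and endothelial cells, and in bulk RNA fewer cells of a type and less RNA per cell cannot be told apart. All 12 Kupffer cell and macrophage markers, all 12 stellate cell markers and all 10 sinusoidal endothelial markers were called higher in the high-fat libraries, at median log2 fold changes of 2.26, 2.49 and 1.81. The macrophage markers summed to 523 to 1494 reads per 20 M in the low-fat libraries and to 2374 to 13195 in the high-fat libraries, where the highest sums, 13195 and 11252, were those of WT and KO replicate 1. Endothelial markers summed to 1105 to 2700 and 4705 to 15366, and stellate markers to 224 to 963 and 2944 to 5504. Cholangiocyte markers went the other way: 2 of 3 tested were called lower (median -0.26), and their sums, 750 to 978 and 595 to 803, were larger in high-fat cells in 0 of 6 mice. Of 3 tested markers of neutrophils and lymphocytes 0 were called, with sums of 33 to 418 and 82 to 497. Adipocyte markers summed to 173 to 308 and 225 to 726, with the high-fat sum the larger one in each mouse. Of the 2 that were tested Cfd rose by 1.46 (limma adjusted p = 0.0027) and Adrb3 was not called, at 0.32 (limma adjusted p = 0.105), while Lep was at 0 in every library and Plin1 in all but KO low-fat replicate 3.

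Compared per kilobase of exon, Hsd17b13 was the most abundant member, at 4106 reads per 20 M per kb over the 12 libraries. It was followed by G0s2 at 2329, Lipc at 1668, Mgll at 1201, Lipa at 832.7 and Pnpla2 at 487.7. Abhd5 at 109.2, Pnpla3 at 60.72, Lipe at 52.96 and Hilpda at 32.26 were far lower. Pnpla2 held place 6 and Abhd5 place 7 in each of the 12 libraries. G0s2 moved between places 1 and 5 from library to library, so that its place is not settled. Neighbours in this order also depend on the gene length used: with the median length of coding transcripts, Mgll moved up to place 2 and Lipe passed Pnpla3.

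**Figure D1:**
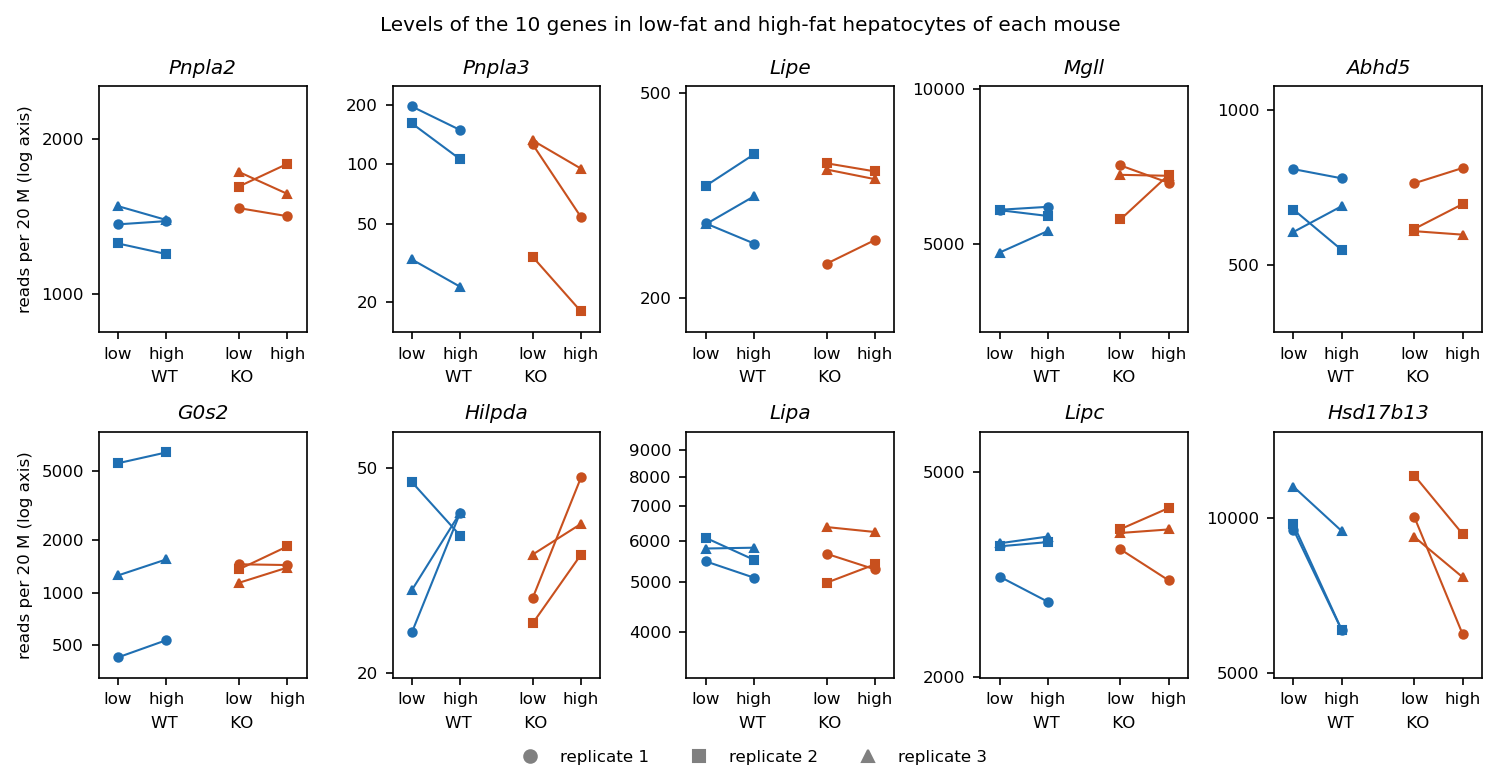
Level of each of the 10 genes in the 12 libraries, in reads per 20 M on log axes; lines join the low-fat and high-fat library of 1 mouse, blue for WT and orange for KO, and symbols give the replicate number. Hsd17b13 and Pnpla3 fall in all 6 mice, and the WT mice of G0s2 lie far apart.

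The first comparison asked how hepatocytes with much fat differ from those with little in the same animal. Over the 6 mice, each taken as its own control, limma called 2 of the 10 members, both lower, where 7.02% of the 16563 genes tested were called lower and 15.4% were called in all. The median log2 fold change of the 10 members was -0.08, against -0.04 for all genes tested.

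Hsd17b13 (ENSMUSG00000034528), a dehydrogenase of the lipid droplet surface, was read at 9475, 9698 and 11478 reads per 20 M in WT low-fat replicates 1 to 3 and at 6040, 6046 and 9410 in the WT high-fat libraries of the same mice. In KO mice it was at 10026, 12066 and 9171 in low-fat cells, against 5935, 9287 and 7659 in high-fat cells. Each high-fat library lay below the low-fat library of its mouse. Once scaled between libraries, the 6 low-fat libraries all lay above the 6 high-fat libraries, while the deposited values overlap narrowly. The fractions were free of overlap for 5.46% of all genes. The fitted difference was a log2 fold change of -0.58 (limma adjusted p = 0.0042, SE 0.095, 95% interval -0.79 to -0.36), lower in 6 of 6 mice, as in 11.7% of all genes. A two-sided exact sign-flip permutation test gave p = 0.0313, the smallest that 6 pairs allow. The difference was smallest in KO replicate 3, at -0.25, and largest in KO replicate 1, at -0.98.

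Pnpla3 (ENSMUSG00000041653), a lipase of the droplet surface and a known target of the lipogenic factor SREBP-1c, was much less abundant. It was read at 196, 161 and 33 reads per 20 M in WT low-fat replicates 1 to 3 and at 149, 106 and 24 in the high-fat libraries of these mice. In KO mice it was at 126, 34 and 132 in low-fat cells, against 54, 18 and 95 in high-fat cells. The high-fat value was the lower one in every mouse, although the fractions overlap widely because the mice differ. Its log2 fold change was -0.73 (95% interval -1.04 to -0.41, SE 0.14, limma adjusted p = 0.0086), lower in 6 of 6 mice. The exact sign-flip permutation test again gave its smallest p of 0.0313. A fit without the mouse, that is without the replicate block, gave the same log2 fold change of -0.73 with a limma adjusted p of 0.504, so the Pnpla3 call rests on the pairing.

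Both falls were also computed under other settings. The 10 hepatocyte markers were not all stable between the fractions. Cyp3a11 was called higher in the high-fat libraries, at 1.12, and Hnf4a lower, at -0.30 (limma adjusted p = 0.00087 and 0.0174), while 8 were not called. Of the 10 markers, 8 had a log2 fold change below 0, and the median was -0.15. In the mean of the 10, which sets the scale below, the rise of Cyp3a11 offsets these falls. Scaling to that mean therefore cannot decide the part of hepatocyte content. When libraries were scaled to the 10 hepatocyte markers, a setting added after seeing the data, the log2 fold changes were -0.56 for Hsd17b13 (limma adjusted p = 0.00081) and -0.71 for Pnpla3 (limma adjusted p = 0.0064). Without both mice numbered 1, whose high-fat libraries held the most macrophage transcripts, they were -0.41 for Hsd17b13 (limma adjusted p = 0.0037) and -0.59 for Pnpla3 (limma adjusted p = 0.026). The mice kept still had more transcripts of other cells in the high-fat library. Their median log2 differences were 0.777 to 1.945 for macrophage, 1.632 to 2.773 for stellate and 1.064 to 1.645 for endothelial markers. The part of other cell types in both falls was not tested.

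Genes of liver zonation moved with the fractions too. Of 13 genes typical of hepatocytes near the central vein, 11 rose and 0 fell in the high-fat libraries (median log2 fold change 0.74), among them Lgr5 at 1.09, Lhpp at 0.92, Tbx3 at 0.88 and Gulo at 0.80. Of 14 genes typical of hepatocytes near the portal vein, 0 rose and 11 fell (median -0.61), among them Aldh1b1 at -1.17, Cdh1 at -0.99, Hsd17b6 at -0.74 and Hal at -0.73. The pericentral median was positive in each mouse, between 0.39 and 1.31, and the periportal median negative, between -0.63 and -0.34. The part of zonation in the fall of Hsd17b13 and Pnpla3 was not tested.

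The other 8 members were not called between fractions. G0s2, the inhibitor of PNPLA2, was the higher one in high-fat cells of 5 of 6 mice and was not called, at a log2 fold change of 0.18 (limma adjusted p = 0.139, SE 0.078). The exception was KO replicate 1, which read 1459 in its low-fat and 1444 in its high-fat library. With either library of that mouse left out the log2 fold change was 0.27 or 0.26 and passed the threshold (limma adjusted p = 0.0139 and 0.0183). It passed also with the deposited scaling alone, at 0.26 (limma adjusted p = 0.0184), and without both mice numbered 1, at 0.30 (limma adjusted p = 0.0112). The other settings run left G0s2 uncalled, and over all 23 settings its limma adjusted p ran from 0.0112 to 0.89.

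Hilpda, a small inhibitor of PNPLA2 known to be induced by low oxygen and by fatty acids, was the least abundant member. It was read at 24, 47 and 29 reads per 20 M in WT low-fat and 41, 37 and 41 in WT high-fat replicates 1 to 3. The KO values were 28, 25 and 34 in low-fat cells, against 48, 34 and 39 in high-fat cells. WT replicate 2 went from 47 to 37, and the other 5 mice were higher in the high-fat library. The log2 fold change was 0.30 and was not called (95% interval -0.06 to 0.65, SE 0.16, limma adjusted p = 0.228).

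The lipases of the main cascade were not called. The log2 fold changes were -0.11 for Pnpla2 (limma adjusted p = 0.24), -0.03 for Lipe (limma adjusted p = 0.821) and -0.03 for Mgll (limma adjusted p = 0.833). Pnpla2 passed the threshold only where a library of KO replicate 2 was left out, at -0.16 (limma adjusted p = 0.0312 and 0.0333). Lipa, the acid lipase of lysosomes, stood at -0.12 and Lipc, the secreted hepatic lipase, at -0.10 (limma adjusted p = 0.229 and 0.406). Abhd5, the activator of PNPLA2, stood at -0.06 (limma adjusted p = 0.55). The 95% intervals of these 6 genes all lay between -0.27 and 0.14 on the log2 scale.

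**Figure D2:**
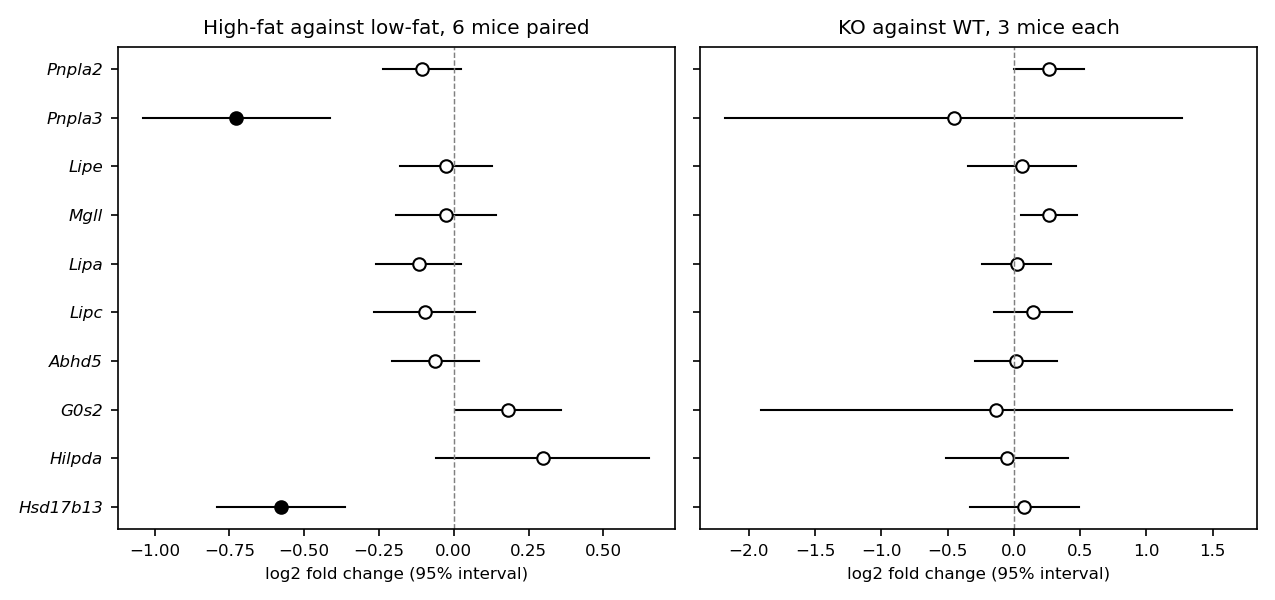
Log2 fold change with its 95% interval for each gene, high-fat against low-fat over 6 paired mice (left) and KO against WT over 3 mice each (right); filled points are called at a limma adjusted p under 0.05. Hsd17b13 and Pnpla3 are the filled points on the left, none is filled on the right, and the axes have different ranges.

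Within each genotype, with 3 mice, 0 of 10 members were called, where 1.02% of all genes were called in WT and 2.14% in KO. Hsd17b13 and Pnpla3 had an unadjusted p under 0.05 in each genotype, as did 19.2% of all genes in WT and 14.1% in KO. For Hsd17b13 the log2 fold change was -0.62 in WT and -0.53 in KO mice (limma adjusted p = 0.0839 and 0.113). For Pnpla3 it was -0.55 in WT and -0.90 in KO mice (limma adjusted p = 0.195 and 0.0573), and for G0s2 0.20 and 0.17 (limma adjusted p = 0.372 and 0.598). The interaction term, the KO minus the WT difference between fractions, was 0.09 for Hsd17b13 and -0.35 for Pnpla3. Neither was called (limma adjusted p = 1 each), and 0.0% of all genes were, with 64 genes (0.386%) at an unadjusted p under 0.05.

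The second comparison set the mice labelled as Ptprk knockouts against wild-type mice. With the fractions of each mouse averaged, 0 of 10 members were called by limma over 3 KO and 3 WT mice, and 1 had an unadjusted p under 0.05. The background was 0.00604% of genes called, which is Ptprk itself, and 2.23% at an unadjusted p under 0.05. In each fraction alone limma called 0 of 10 members as well, against 0.00604% of all genes in each. At an unadjusted p under 0.05 were 0 members in the low-fat and 1, Mgll, in the high-fat fraction, against 1.64% and 1.97% of all genes.

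Mgll showed the clearest separation of the genotypes. Its low-fat libraries read 5839, 5829 and 4823 per 20 M (WT) against 7119, 5592 and 6826 (KO), and its high-fat libraries 5917, 5679 and 5312 (WT) against 6585, 6830 and 6797 (KO). The KO libraries were all above the WT libraries in the high-fat fraction, a separation found for 4.92% of all genes, and overlapped them in the low-fat fraction through KO replicate 2. Averaged per mouse the genotypes did not overlap, as was so for 6.35% of all genes. Its log2 fold change was 0.27 (95% interval 0.06 to 0.48, SE 0.091, unadjusted p = 0.0196, limma adjusted p = 0.9999). The two-sided exact permutation test gave p = 0.1, the smallest that 3 mice against 3 allow.

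Pnpla2 read 1367, 1255 and 1483 per 20 M in low-fat cells of WT mice and 1470, 1619 and 1728 in those of KO mice. In high-fat cells it read 1387, 1197 and 1394 (WT) and 1418, 1791 and 1567 (KO). KO replicate 1 lay below WT replicate 3 in the low-fat fraction, and once scaled between libraries the genotypes overlapped in the high-fat fraction too. Its log2 fold change was 0.26 (unadjusted p = 0.0502, limma adjusted p = 0.9999, SE 0.11) and the exact permutation p was 0.2.

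For the other members the size of a genotype difference was bounded unevenly. The 95% interval of the log2 fold change ran from -0.24 to 0.28 for Lipa, from -0.30 to 0.32 for Abhd5 and from -0.15 to 0.44 for Lipc. It ran from -0.35 to 0.47 for Lipe, from -0.33 to 0.49 for Hsd17b13 and from -0.51 to 0.41 for Hilpda. For G0s2 and Pnpla3 it ran from -1.91 to 1.64 and from -2.18 to 1.27. A change of several fold lies within these last intervals. The mice of a genotype differed widely among themselves in Pnpla3 in both genotypes, and in G0s2 in WT mice.

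G0s2 varied most among the members. In WT replicates 1 to 3 it was read at 427, 5534 and 1259 reads per 20 M in low-fat cells, against 536, 6384 and 1556 in high-fat cells. The 6 KO libraries lay between 1142 and 1845. WT replicate 2 was thus far above, and WT replicate 1 far below, all KO libraries, in both fractions alike. Averaged over fractions, the WT mice spanned 12.1-fold, and the SD of log2 levels was 1.80 over the WT mice and 0.14 over the KO mice; whether the spread differs by genotype was not tested. Over all 6 mice the SD was 1.15, above 99.5% of the genes tested and above all of the 500 genes nearest to it in level.

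The balance of the inhibitor to its lipase shifted with it. The ratio of G0s2 to Pnpla2 per kilobase of exon was 1.08 and 1.34 in the low-fat and high-fat libraries of WT replicate 1 and 15.3 and 18.5 in those of WT replicate 2. It lay between 2.29 and 3.57 in the 6 KO libraries. With the median length of coding transcripts the KO ratios were 1.06 to 1.65 and those of WT replicate 1 were 0.499 and 0.618. Which transcript is the more abundant in that mouse thus depends on the length used, while the order of the mice does not.

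Pnpla3 was the other variable member, with an SD over mice of 1.12, above 99.4% of the genes tested, and a 6.42-fold range between WT replicate 1 and KO replicate 2. Low values were found in WT replicate 3 and KO replicate 2, in both fractions, so the low mice came from both genotypes. The other 8 members had SDs between 0.13 and 0.24, near the median of 0.18 over all genes. Among the 500 genes nearest in level to each, Hilpda stood at percentile 13.4, Lipa at 50.4 and the other 6 at 70.2 (Mgll) to 84.8 (Pnpla2).

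**Figure D3:**
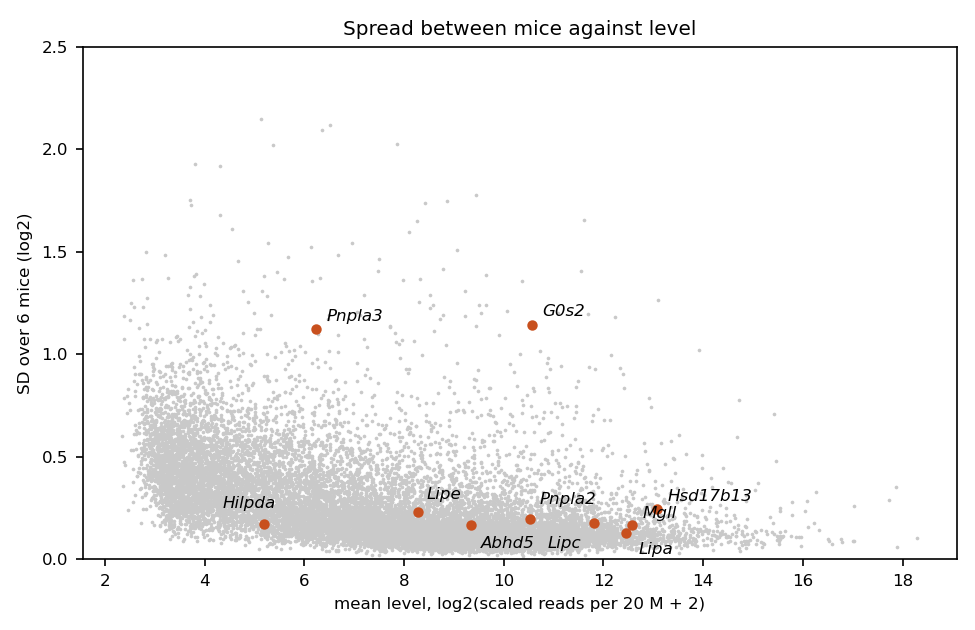
SD of the log2 level over the 6 mice, fractions averaged, against the mean log2 level of each of the 16563 genes tested (grey) and of the 10 members (orange). G0s2 at 1.15 and Pnpla3 at 1.12 stand above the other 8 members, which lie at 0.24 or below.

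The genes whose levels ran most alike were listed for each member by Pearson's r over the 12 libraries, among genes that averaged 100 reads per 20 M or more. These libraries share mice and fractions, so r is a description. For Hsd17b13 the first was St6gal1, a sialyltransferase, at r = 0.996, followed by Rida at 0.971 and Cp, the gene of ceruloplasmin, at 0.961. St6gal1 also fell in all 6 mice, by 0.54 on the log2 scale (limma adjusted p = 0.0034, SE 0.086), beside the -0.58 of Hsd17b13.

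For Pnpla3 the first was Fasn, the fatty acid synthase, at r = 0.955, with Acot11 at 0.952 and Fam151a at 0.937. Low-fat libraries read Fasn at 42230 ± 24530 (WT) and 29010 ± 13510 (KO) per 20 M, and high-fat libraries at 31260 ± 16530 and 21110 ± 9842 (SD, n = 3 each). WT replicate 3 and KO replicate 2, the mice with the least Pnpla3, also had the least Fasn.

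For G0s2 the first were Bcor, Epha2 and Inhbe, at r = 0.957, 0.943 and 0.92. For Lipa they were Gpr146 at 0.979, Hist1h1c at 0.963 and Fahd2a at 0.955. For Pnpla2 they were Fech at 0.942 and Slc7a2 at 0.928. For Lipc they were Atp13a3 at 0.953, Arl6ip4 at 0.948 and Cbr1 at 0.944, and for Abhd5 Aadat at 0.949, Ywhaz at 0.947 and Ankrd52 at 0.92. For Mgll, Oaf at 0.906, Pdxk at 0.88 and AC160411.2 at 0.872 came first, and for Hilpda, Gm10033 at 0.894, Dcaf17 at 0.882 and Mcrs1 at 0.821. Lipe was most like Spopl at 0.952, its own antisense gene 4732471J01Rik at 0.939 and Naaladl2 at 0.937. Strandedness is not given in the sources used here, so reads from any stretch that exons of Lipe and its antisense gene share cannot be told apart. The same holds for Mgll with Gm26588, Abhd5 with A730085K08Rik, G0s2 with Lamb3 and Lipc with Gm32017, which overlap on the opposite strand. These are overlaps of whole genes, and whether their exons overlap was not examined.

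**Figure D4:**
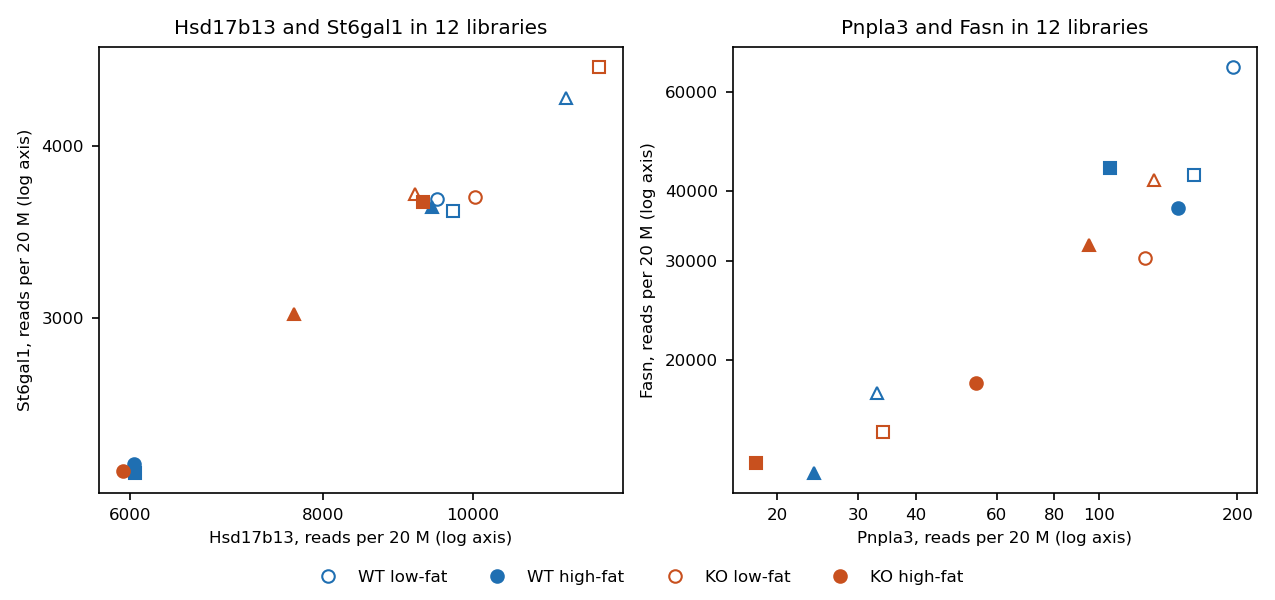
Hsd17b13 against St6gal1 (left) and Pnpla3 against Fasn (right), in reads per 20 M on log axes, in the 12 libraries; open symbols are low-fat and filled symbols high-fat, blue WT and orange KO, with circles, squares and triangles for replicates 1 to 3. The points show deposited values, while r = 0.996 and r = 0.955 were computed on log2 levels scaled between libraries.

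Other genes of fat breakdown were compared between the fractions over the same 6 mice. The counts of each list stand against 15.4% of all genes called, 8.36% higher and 7.02% lower, at a median log2 fold change of -0.04. Of 27 genes listed as other neutral lipid hydrolases, some of them phospholipases, 4 rose, 0 fell and 23 were not called. This share of calls was near that over all genes, and the median was 0.03. Lpl, the lipoprotein lipase, went from a mean of 433.2 to 1228 reads per 20 M (log2 fold change 1.40, limma adjusted p = 0.001). Nceh1, a cholesteryl ester hydrolase, rose by 0.48 (limma adjusted p = 0.0026) and Pla2g6, a phospholipase, by 0.17 (limma adjusted p = 0.0426). Macrophage markers rose in the same libraries, as given above, and their part in the rise of these genes was not tested.

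Most genes of the hormonal control of lipolysis were not called. Of 16 tested genes of this list 0 rose, 3 fell and 13 were not called, at a median of -0.11: Adora1, an adenosine receptor, at -0.28, and Prkar1a and Prkar2a, regulatory subunits of protein kinase A, at -0.23 and -0.20 (limma adjusted p = 0.0383, 0.0357 and 0.0497). Of 21 lysosome genes, which work beside Lipa, 1 rose, Hexa at 0.17 (limma adjusted p = 0.0425), and 0 fell, at a median of -0.08.

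Pnpla3 is known to be regulated together with genes of lipid synthesis. Of 13 lipogenic genes 0 rose, 6 fell and 7 were not called, at a median of -0.29, led by Acly at -0.76, Elovl6 at -0.51, Fasn at -0.50 and Acaca at -0.49 (limma adjusted p = 0.0023, 0.0051, 0.0348 and 0.0109). Of 20 genes of PPAR-alpha and its targets, a program that fatty acids switch on, 5 rose and 1 fell, at a median of 0.05. Pdk4, Acot1 and Vnn1 rose by 0.71, 0.67 and 0.56, and Ppargc1a, a coactivator, fell by 0.41 (limma adjusted p = 0.0202, 0.0011, 0.0021 and 0.0029).

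Of 15 hypoxia-response genes, the program known to induce Hilpda, 4 rose and 3 fell, at a median of 0.03. Ndrg1, Pfkfb3 and Egln3 rose by 0.96, 0.74 and 0.31, and Ddit4 fell by 0.26 (limma adjusted p = 0.0138, 0.0172, 0.0169 and 0.0134). Of 10 tested relatives of Hsd17b13 among the dehydrogenases, Rdh16 rose by 0.58 and Hsd17b6 fell by 0.74 (limma adjusted p = 0.0021 and 0.00087). Hsd17b11, a close relative of Hsd17b13 and also a droplet protein, was not called, at 0.04 (limma adjusted p = 0.748). Between the genotypes, fractions averaged, 0 genes of these 7 lists and of the zonation lists were called by limma.

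**Figure D5:**
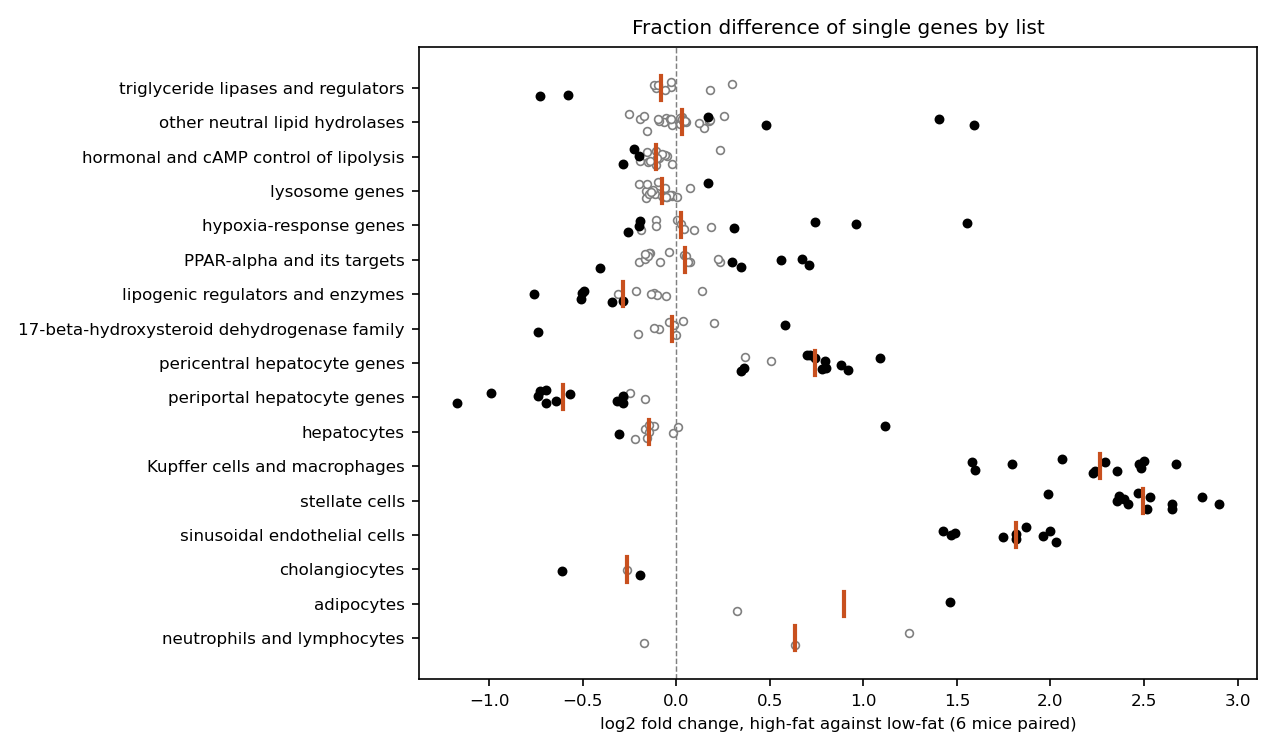
Log2 fold change between high-fat and low-fat cells over 6 paired mice for each tested gene of the lists (points, filled where called at a limma adjusted p under 0.05), with the median of each list as an orange bar. The marker lists of macrophages, stellate cells and endothelial cells lie at medians of 1.81 to 2.49, and the 10 lipases and regulators at -0.08.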

How the data were processed

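RNA sequencing of polyA RNA gave 12 libraries from 6 mice. The deposited values are a score: read counts per gene that the authors brought to a common total of 20 M and rounded up, which was read from the values, since each column sums to 20.01 M. Per the submitters' processing notes the build was mm9, while the aligner, counter, annotation and strandedness are not given in the sources used here. Scaling removes depth, which was estimated at 15.1 to 25 M reads from steps among low values (largest error 0.0172% on simulated libraries). The planned tests were kept, since they were laid out for scaled values. The floor of 3 reads covers counting error only.

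Genes at 10 or more in at least 3 libraries (16563) were rescaled by the trimmed mean of M values, transformed as log2(value + 2), which understates changes of low genes, and fitted with limma 3.58.1 in R 4.3.3 and an intensity trend. Tests are two-sided, with p-values adjusted by Benjamini-Hochberg over all genes tested, and calls made under 0.05. Fraction comparisons carried a term for each mouse, because the labels give the low-fat and high-fat library of a replicate number 1 mouse name. Deviations of the libraries of a mouse correlated across genes (mean r 0.516 for WT, and 0.162 for KO, from -0.0116 to 0.458). Libraries of different mice, WT and KO, that share a replicate number gave a mean r of 0.314 (low-fat) and 0.233 (high-fat). In KO this measure thus does not set libraries of the same mouse apart, and the pairing there rests on the labels. Genotypes were compared by group means in each fraction and over the mean of each mouse. The fit by group means took its spread from all 12 libraries without a term for the mouse. The libraries of a mouse thus counted as separate there, so its p-values may be too small. On simulated data of 16563 genes with 200 changed, the 6-mouse fit found 75% of 2-fold changes with 5 false calls, and the genotype fit over mice 54.4% with 9. Each simulated gene varied on its own with normal noise. Variation shared between genes was not modelled, so these shares may not hold for the real data.

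Named genes are the 10 members, up to 4 called genes of each list with the largest change and a mean of at least 100, and the 3 genes most like each member, of which 1 is not reported here. Members and lists were chosen with earlier results of these data known. Gene lengths and overlaps came from GENCODE M21 (GRCm38), for which no coordinates are printed. Promoters came from RefSeq, and all 10 members matched. Alternatives changed the pseudocount, filter, scaling, trend, block and libraries used.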

Additional observations from a re-analysis of the deposited data

Results flagged for a closer look

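The level of G0s2 in WT replicate 2 stood apart from the other 5 libraries of its fraction, at 5534 reads per 20 M among the low-fat and 6384 among the high-fat libraries, its gap to the next library exceeding Dixon's 95% limit for 6 values. The log2 difference of G0s2 between fractions stood apart in KO replicate 1, at -0.24, while the other 5 mice lay between 0.20 and 0.45. In that mouse the median difference of the 10 hepatocyte markers was -0.39 and that of the macrophage markers 4.28. Of 30 such checks over the 10 members 3 were past the limit, and chance alone passes about 1 in 20 of independent checks on normally spread values. The checks of level used reads per 20 M and were not run on log2 levels, while those of the difference used the log2 scale. The flags of level came from the same mouse, so they are not independent.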

How the results depend on the processing

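Hsd17b13 kept its fall and its call over 6 mice under every alternative run, from -0.64 to -0.41 (limma adjusted p = 0.00081 to 0.0371), and Pnpla3 kept its fall, from -0.78 to -0.59. Without the replicate block 1 member was called in place of 2, since Pnpla3 at -0.73 did not pass. Leaving out 1 library gave 2 to 3 members over 6 mice, 0 to 1 in KO (G0s2 without KO high-fat replicate 1, at 0.37) and 0 in WT. In WT, Hsd17b13 was the 1 member called by a fit of only the libraries compared (-0.62) and with scaling to hepatocyte markers (-0.59), which in KO called 2, Pnpla3 (-0.90) and Hsd17b13 (-0.53). Scaling to hepatocyte markers and leaving out both mice numbered 1 were chosen after seeing the data. No member was called between genotypes or in the interaction under any alternative run, and the replicate block, whose numbers join different mice there (mean r = 0.314 low-fat and 0.233 high-fat), changed no genotype call of a member.

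Among uncalled differences the sign turned as follows, and the cause was not tested. Over 6 mice, the deposited scaling alone gave 0.0484 for Lipe, 0.0484 for Mgll and 0.0137 for Abhd5, and leaving out both mice numbered 1 gave 0.0566, 0.0856 and 0.000497 for these and 0.0472 for Lipc. Leaving out 1 library gave -0.0806 to 0.0202 for Lipe and -0.096 to 0.0357 for Mgll. Between genotypes, Abhd5 was -0.00524 with the deposited scaling, and scaling to hepatocyte markers gave -0.0438 for Abhd5 and -0.0348 for Lipa. Leaving out 1 mouse gave -1.21 to 0.18 for Pnpla3, -0.0399 to 0.252 for Lipe, -0.0815 to 0.113 for Abhd5, -1.01 to 0.80 for G0s2 (0.80 without WT replicate 2), -0.144 to 0.0618 for Hilpda, -0.0781 to 0.0923 for Lipa and -0.0423 to 0.255 for Hsd17b13. The interaction of Hsd17b13 ran from -0.0544 to 0.324.

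The share of all genes called moved more than the members did. Against 2546 genes over 6 mice, alternatives gave 1159 (no replicate block) to 4850 (without KO high-fat replicate 2). Against 169 in WT they gave 0 to 1531, and against 354 in KO 0 to 425. Ptprk was not called over mice in 10 of the alternatives. Depth limits Hilpda and the low libraries of Pnpla3 most, with as few as 26.5 and 20.7 estimated reads, and a filter at 50 reads per 20 M removes Hilpda.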
